A study of Mus musculus with 7 samples.

Results

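The enzymes and transporter that buffer ATP in muscle were followed in immobilized gastrocnemius, the fast calf muscle, of mice without DJ-1 in skeletal muscle. They were chosen by name, as the creatine kinase, creatine supply, adenylate kinase, AMP deaminase and adenylosuccinate synthetase genes of muscle. The 10 names listed correspond to 9 of the 21487 rows of the count table, because Adss1 is the current symbol of the gene that the table calls Adssl1. All 9 passed the filter on low counts, as did 13409 genes in all.

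The study compared 4 libraries of a skeletal muscle knockout of PARK7, the gene of DJ-1 (MPARK7KO, knockout 1 to 4), with 3 libraries of floxed mice (titled WT, control 1 to 3). The limb muscle of both groups had undergone immobilization to induce atrophy, so no library shows the muscle of a freely moving mouse. The sources used here do not give the driver of the deletion, the age or sex of the mice or the length of immobilization. Whether every library came from its own mouse is not said either, so p-values measure only the spread between these samples, which may be technical.

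Muscle stores high-energy phosphate as phosphocreatine, which creatine kinase forms from creatine and ATP and turns back into ATP during contraction. The mitochondrial form of the enzyme charges creatine where ATP is made, and the cytosolic form uses the store beside the myofibrils. When ADP accumulates, adenylate kinase joins a pair of ADP molecules into ATP and AMP. AMP deaminase then converts AMP to IMP, and adenylosuccinate synthetase begins the way back to AMP, which closes the purine nucleotide cycle.

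Totals ran from 25651559 to 26085765 counts in the knockout libraries and from 24458343 to 26389010 in the control libraries. Park7 itself stood at 34.7 to 41.5 CPM, counts scaled to a common library total, in the knockouts and at 229 to 266 CPM in the controls. All 10 listed markers of skeletal muscle fibres were detected, with a summed level of 134062 to 203627 CPM in the knockouts and 103606 to 128912 CPM in the controls. Of these markers 2 rose, Myh4 and Actn3, and 1 fell, Mb, and Myh4 made up most of the difference between the sums. Knockouts 2 and 3 stood apart in mRNAs of slow fibres, whose 10 listed markers summed to 143 and 85.9 CPM there, against 734 and 742 CPM in knockouts 1 and 4 and 1870 to 2194 CPM in the controls. Of all genes tested, 14.9% were called at an adjusted p under 0.05 by edgeR, 6.67% as higher and 8.23% as lower in the knockouts. Of the calls, 44.8% were higher with the scaling used here and 33.2% with upper quartile scaling.

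The start regions of the 3 creatine kinase genes followed here are shown because the clearest contrast among the 9 genes lies between them. Each is the RefSeq window from 250 bases before to 50 bases after the annotated start on GRCm38.p6, 5′ to 3′ on the strand of the gene. Capitals mark E-boxes (CANNTG, bound by myogenic factors among others) and a MEF2-type site, searched as CTA, any 4 bases and TAG. The Ckmt2 window lies at chr13:91876836-91877135 on the minus strand, the Ckm window at chr7:19410844-19411143 on the plus strand and the Ckb window at chr12:111672289-111672588 on the minus strand.
Ckmt2: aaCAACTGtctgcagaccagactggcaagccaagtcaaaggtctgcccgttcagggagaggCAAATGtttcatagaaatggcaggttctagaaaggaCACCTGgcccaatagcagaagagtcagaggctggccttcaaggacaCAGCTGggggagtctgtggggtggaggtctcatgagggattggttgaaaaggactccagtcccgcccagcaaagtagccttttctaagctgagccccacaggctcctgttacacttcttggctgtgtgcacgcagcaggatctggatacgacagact
Ckm: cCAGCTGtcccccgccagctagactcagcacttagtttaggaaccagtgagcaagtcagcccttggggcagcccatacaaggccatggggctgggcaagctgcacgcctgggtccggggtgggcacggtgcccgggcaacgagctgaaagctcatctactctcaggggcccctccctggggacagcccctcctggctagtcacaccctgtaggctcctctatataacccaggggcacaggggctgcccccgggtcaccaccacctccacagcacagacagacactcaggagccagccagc
Ckb: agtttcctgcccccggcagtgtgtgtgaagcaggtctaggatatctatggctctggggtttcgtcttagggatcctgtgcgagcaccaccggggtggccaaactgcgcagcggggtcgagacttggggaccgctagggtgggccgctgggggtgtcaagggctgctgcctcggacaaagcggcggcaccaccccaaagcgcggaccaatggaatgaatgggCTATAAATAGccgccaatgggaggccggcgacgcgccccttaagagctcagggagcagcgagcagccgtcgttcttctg
The Ckmt2 window held 4 E-boxes, the Ckm window 1 and the Ckb window 0. At least 1 E-box was found in 72.3% of all 32851 windows of this length. The MEF2-type site was found in the Ckb window alone of the 3, where it spans a TATA-like stretch, and in 3.69% of all windows. The FOXO site GTAAACA and the core site of estrogen-related receptors AAGGTCA were in none of the 3, and in 3.65% and 4.72% of all windows. Both strands were searched, no marked sites overlap in these 3 windows, and a match is a description of letters only.

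Ckmt2, which encodes the mitochondrial creatine kinase of striated muscle, fell in the knockout and changed most among the 9 genes. It read 383, 439, 308 and 440 CPM in knockouts 1 to 4, against 1055, 1257 and 860 CPM in controls 1 to 3. Every knockout library lay below every control library, and the highest knockout stood far under the lowest control. The means were 393 ± 62.7 CPM in the knockouts (SD, n = 4) and 1057 ± 198 CPM in the controls (SD, n = 3), a fold of 0.371. On the log2 scale the change was -1.43 with a standard error (SE) of 0.158, at an adjusted p of 0.00298 in the quasi-likelihood test of edgeR. With 1 library left out it ran from -1.56 to -1.28, and it was called each time (adjusted p = 0.00319 to 0.0127). The gene lies on chromosome 13 at 91853387 to 91876885 of GRCm38.

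**Figure D1:**
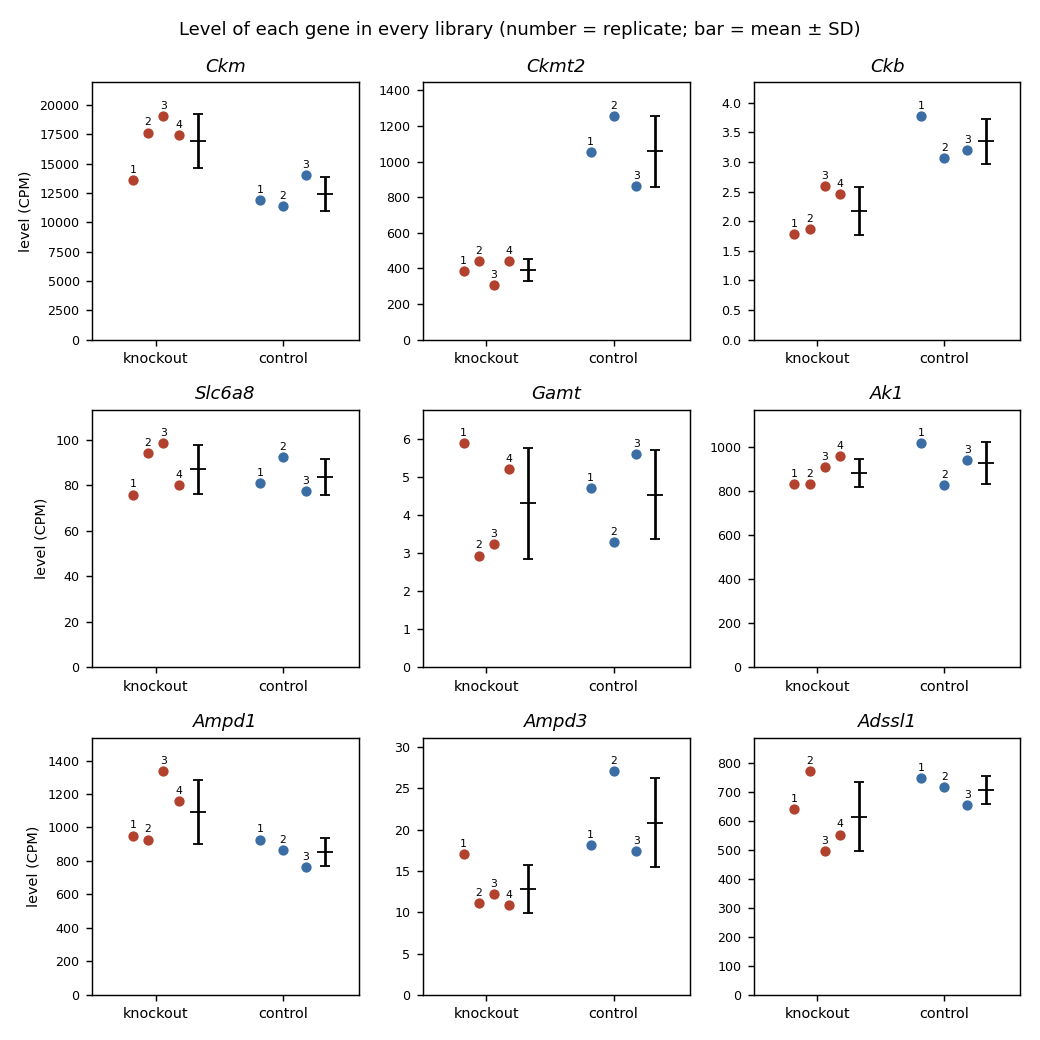
Level of each of the 9 genes (CPM, linear axis from 0) in every library, knockout left and control right, with the replicate number over each point and the mean ± SD as a bar. The groups are apart for Ckmt2, Ckb and, narrowly, Ampd3, and overlap for the other genes.

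Among the 135 tested genes whose average level was at least that of Ckmt2, 6 had a log2 fold change this low or lower, counting Ckmt2. The others, chosen here after their values were seen, were Fhl1, Mb, Mybpc1, Myh1 and Myh2, among them myoglobin and the myosins of type IIx and IIa fibres. The 13 mRNAs of mitochondrial DNA had log2 fold changes of -0.90 to -0.51 and took 8.72% to 11.6% of the counts in the knockouts and 17.0% to 19.97% in the controls. Of the 10 slow fibre markers, 5 were called lower and 0 higher, beside 8.23% and 6.67% of all genes tested, with a median log2 fold change of -2.35. In all 10, called or not, every knockout lay below every control, as in 14.7% of all genes tested. Knockout 3 was the lowest library in both Ckmt2 and the slow fibre sum. Knockouts 2 and 4 had nearly equal Ckmt2 and slow fibre sums of 143 and 742 CPM. Mb read 875, 996, 252 and 1002 CPM in knockouts 1 to 4, against 3745, 3498 and 3333 CPM in controls 1 to 3. The knockouts ranked alike in Mb and Ckmt2, while Mb was highest in control 1 and Ckmt2 in control 2. Myh4, the myosin gene of type IIb fibres, rose to 99797 CPM in the knockouts, against 46282 CPM in the controls (edgeR adjusted p = 0.0381). The part of fibre type in the fall of Ckmt2 was not tested. In whole muscle, fewer fibres that make an mRNA and less of it per fibre cannot be told apart.

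Ckm encodes the cytosolic muscle creatine kinase and is among the most abundant mRNAs of the tissue. It took 1.46% to 1.84% of all counts in the knockouts and 1.13% to 1.38% in the controls. Its level was 13611, 17657, 19081 and 17416 CPM in knockouts 1 to 4, against 11872, 11377 and 14058 CPM in controls 1 to 3. The groups overlapped, since knockout 1 lay below control 3. The log2 fold change of 0.45 (SE 0.177) did not pass (edgeR adjusted p = 0.124). DESeq2 called it at an adjusted p of 0.0126, the only one of the 17 alternatives tried that did, over which the adjusted p reached 0.348. Its expected counts were not whole numbers in any of the 7 libraries, so some reads were divided between genes, and 451 bases of its exons overlap A930016O22Rik on the opposite strand, which held 578 to 1526 counts in the knockouts and 780 to 1555 in the controls.

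Ckb, the creatine kinase known from brain and smooth muscle, was scarce. It read 1.78, 1.86, 2.59 and 2.46 CPM in the knockouts, from 49, 49, 65 and 61 counts, against 3.78, 3.06 and 3.20 CPM in the controls, from 94, 80 and 83 counts. Every knockout lay below every control. Its log2 fold change of -0.63 (SE 0.185) just missed the threshold (edgeR adjusted p = 0.0513), which it passed with upper quartile scaling (0.0409), with scaling that left out the mitochondrial mRNAs (0.0499) and with DESeq2 (0.0430). Summed markers of other cells leaned lower in the knockouts. The groups were apart for Schwann cells and nerve and for endothelium, and overlapped for the other lists given here. The 10 markers of smooth muscle and pericytes summed to 686 to 722 CPM in the knockouts and 703 to 804 CPM in the controls, and 5 of them fell, beside 8.23% of all genes tested. The 10 of Schwann cells and nerve summed to 53.8 to 73.5 CPM in the knockouts and to 83.8 to 301 CPM in the controls, highest in control 1, which was also highest in Ckb; 3 of the 8 tested fell. Endothelial markers summed to 226 to 253 CPM in the knockouts and 283 to 328 CPM in the controls, of which 2 fell. The sums were 230 to 378 CPM in the knockouts and 326 to 741 CPM in the controls for fibroblasts (4 of 10 fell), 24.7 to 43.2 CPM in the knockouts and 37.5 to 48.0 CPM in the controls for macrophages (2 of 9 tested fell), and 515 to 1221 CPM in the knockouts and 1147 to 1576 CPM in the controls for adipocytes (3 of 9 tested fell). The adipocyte sum rested mainly on Plin4, at 537 CPM in the knockouts and 407 CPM in the controls, and Lpl, at 170 and 719 CPM. Adipoq averaged 3.10 CPM in the knockouts and 5.43 CPM in the controls. Abcc9, the most abundant of the smooth muscle and pericyte markers, averaged 307 CPM in the knockouts and 284 CPM in the controls. Of these 10 markers it alone had a higher mean in the knockouts. Rgs5, the next in level, averaged 252 CPM in the knockouts and 283 CPM in the controls, and Myh11 34.8 and 46.8 CPM. The defining markers Acta2 of smooth muscle and Pecam1 of endothelium were detected in both groups. Acta2 averaged 25.8 CPM in the knockouts and 34.6 CPM in the controls, and every knockout lay below every control. Pecam1 averaged 53.1 CPM in the knockouts and 63.6 CPM in the controls, and its groups overlapped. The part of these cells in the level of Ckb was not tested.

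The balance of the creatine kinase mRNAs was set as a ratio within each library, which does not depend on scaling between libraries. For every 100 counts of Ckm there were 2.81, 2.49, 1.61 and 2.53 counts of Ckmt2 in knockouts 1 to 4, against 8.88, 11.04 and 6.12 in controls 1 to 3. The log2 ratio averaged -5.43 ± 0.355 in the knockouts (SD, n = 4) and -3.57 ± 0.431 in the controls (SD, n = 3). The difference of -1.87 gave a 2-sided exact permutation p of 0.0286, the smallest that 4 libraries against 3 allow, and 0.0429 adjusted over the 3 ratios tested. It was lower in 4 of 4 knockouts than in any control. The log2 ratio of Ckb to Ckm differed by -1.08, with means of -12.9 ± 0.187 in the knockouts and -11.9 ± 0.240 in the controls (exact permutation p = 0.0286, 0.0429 adjusted). Neither Ckb nor Ckm was called by itself in the edgeR test, and Ckb was scarce. These ratios reuse the libraries of the gene tests and are not independent of them.

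**Figure D2:**
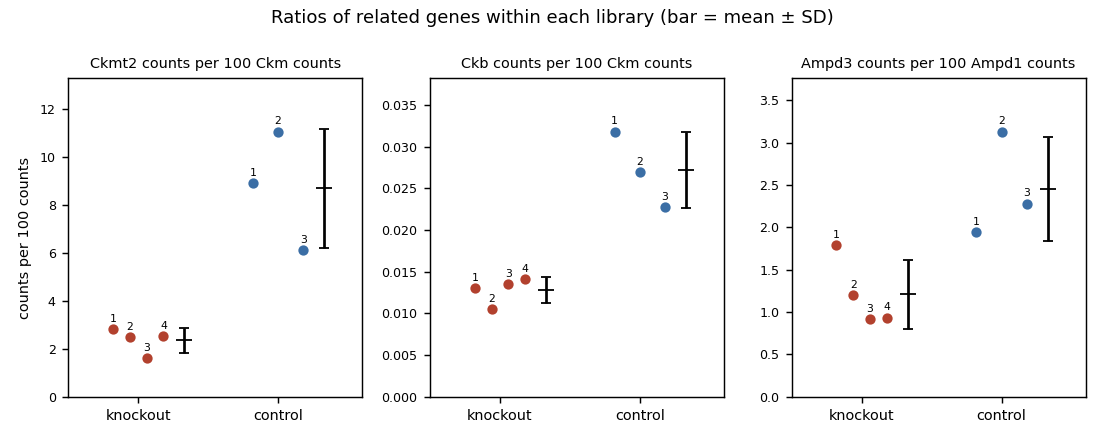
Counts of the rarer gene per 100 counts of the more abundant relative in each library (linear axes from 0), knockout left and control right, with the mean ± SD as a bar; tests were made on log2 ratios. The groups are apart in the first 2 panels and narrowly apart in the third, where knockout 1 at 1.79 lies next to control 1 at 1.95.

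Corrected for transcript length, Ckmt2 made up 4.17% ± 0.886 of the creatine kinase mRNA of the 3 genes in the knockouts (SD, n = 4) and 13.7% ± 3.404 in the controls (SD, n = 3). Ckm made up 95.8% ± 0.885 in the knockouts and 86.2% ± 3.41 in the controls. The shares used the longest principal Ckm transcript of GENCODE, of 2742 bases. With the shortest coding transcript of 1235 bases, the Ckmt2 share was 1.92% in the knockouts and 6.71% in the controls.

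Creatine supply did not pass the test. Slc6a8, the transporter that brings creatine into the fibre, read 75.9, 94.1, 98.4 and 80.0 CPM in the knockouts, against 80.9, 92.4 and 77.4 CPM in the controls. The groups overlapped throughout, with a log2 fold change of 0.06 (SE 0.111, edgeR adjusted p = 0.749). Gamt, the enzyme of the last step of creatine synthesis, read 5.87, 2.93, 3.22 and 5.20 CPM in the knockouts, against 4.70, 3.29 and 5.60 CPM in the controls. Its log2 fold change was -0.07 (SE 0.278, edgeR adjusted p = 0.887), and the lowest 2 knockouts were knockouts 2 and 3. Without both of them the log2 fold change of Gamt was 0.29 and that of Slc6a8 was -0.10, neither called.

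Ak1, the cytosolic adenylate kinase of muscle, showed no change that the test could detect. It read 829, 831, 906 and 959 CPM in the knockouts, against 1014, 825 and 940 CPM in the controls, which overlap fully. Its log2 fold change was -0.07 (SE 0.101, edgeR adjusted p = 0.660), and with 1 library left out it stayed between -0.15 and -0.01.

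The AMP deaminases had opposite signs, and only the minor isoform passed. Ampd1, the isoform of adult skeletal muscle, read 952, 927, 1337 and 1158 CPM in the knockouts, against 928, 865 and 764 CPM in the controls. The groups met at their edges, where knockout 2 lay just under control 1. A log2 fold change of 0.36 (SE 0.143) did not pass (edgeR adjusted p = 0.123), and no alternative tried called it.

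Ampd3, the isoform first known from erythrocytes, fell in the knockout. It read 17.1, 11.1, 12.2 and 10.8 CPM in the knockouts, against 18.1, 27.1 and 17.4 CPM in the controls. Knockout 1 lay only just below control 3, and control 2 was the highest. On the log2 scale the change was -0.70 (SE 0.201, edgeR adjusted p = 0.0474). The call held without knockout 1 (adjusted p = 0.0215) and ended without each other library, when the adjusted p was 0.0683 to 0.151. Without control 2 the log2 fold change was -0.47. Without knockouts 2 and 3 it was -0.58 (adjusted p = 0.196).

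The 8 erythroid markers in the table, out of 10 listed, summed to 235, 205, 101 and 154 CPM in knockouts 1 to 4, against 376, 224 and 808 CPM in controls 1 to 3, and 3 of the 5 tested fell. Knockout 1 was the highest knockout in both this sum and Ampd3. Among the controls the sum was highest in control 3 and Ampd3 in control 2. Hbb-bs and Hba-a1, the most abundant of them, averaged 70.7 and 50.7 CPM in the knockouts and 191 and 140 CPM in the controls. Their part in the level of Ampd3 was not tested. Exons of Ampd3 share 195 bases with Rnf141 on the opposite strand, which held 861 to 1015 counts in the knockouts and 788 to 801 in the controls. They share 196 bases with B430319F04Rik on the opposite strand, which held 1 to 3 counts in the knockouts and 4 to 7 in the controls. On the same strand they share 83 bases with Gm47282, which has no row in the count table. Counts of Ampd3 were not whole in 4 libraries.

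For every 100 counts of Ampd1 there were 1.79, 1.198, 0.914 and 0.936 counts of Ampd3 in the knockouts, against 1.95, 3.13 and 2.28 in the controls. The log2 ratio averaged -6.42 ± 0.452 in the knockouts (SD, n = 4) and -5.38 ± 0.349 in the controls (SD, n = 3). The difference of -1.05 did not reach the threshold (exact permutation p = 0.0571, 0.0571 adjusted over the 3 ratios).

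Adssl1, the muscle adenylosuccinate synthetase, read 640, 772, 497 and 553 CPM in the knockouts, against 748, 718 and 656 CPM in the controls. Knockout 2 was the highest of all 7 libraries, and knockouts 1, 3 and 4 lay below every control. A log2 fold change of -0.20 (SE 0.143) did not pass (edgeR adjusted p = 0.371). Without knockout 2 it was -0.33, which did not pass either (edgeR adjusted p = 0.0837).

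Counted together, 2 of the 9 genes were called, both lower, beside 14.9% of all genes. The groups did not overlap for 3 of the 9, each lower in the knockouts, where 28.8% of all genes tested did not overlap and 14.7% did so with the knockouts lower. The median log2 fold change was -0.07 over the 9 genes and 0.0059 over all genes tested.

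**Figure D3:**
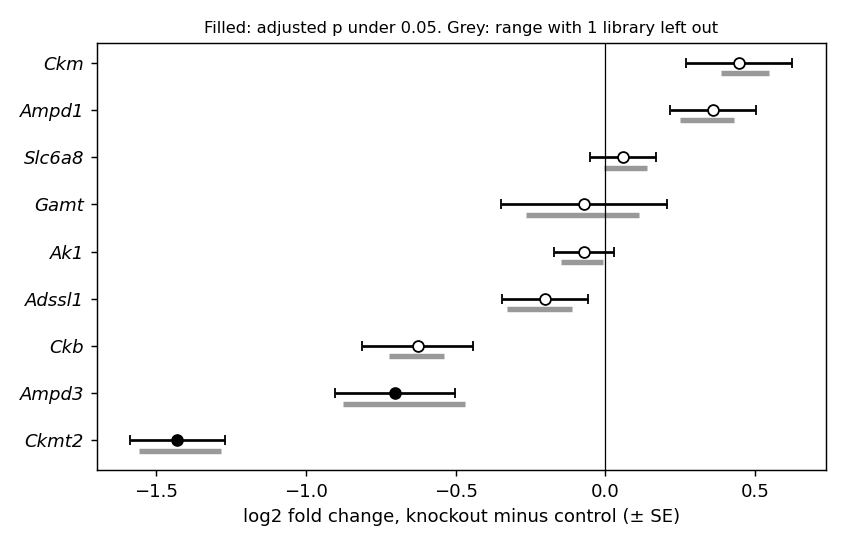
Log2 fold change of each gene, knockout minus control, with its standard error as a bar. Filled points are called at an adjusted p under 0.05, and grey bars span the fits with 1 library left out, which keep Ckmt2 between -1.56 and -1.28.

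Levels were compared between genes as CPM per kilobase of the longest principal transcript. These levels depend on the transcript chosen, as the share of Ckmt2 above did. Ckm was highest in both groups, at 6178 ± 853 in the knockouts (SD, n = 4) and 4535 ± 520 in the controls (SD, n = 3). In the knockouts Ampd1 followed at 467 ± 82.2, then Ak1 at 423 ± 30.2, Adssl1 at 346 ± 67.5 and Ckmt2 at 264 ± 42.2, and the mean ± SD ranges of neighbours in this order overlapped. In the controls Ckmt2 stood in the second place at 711 ± 133, with a mean ± SD range above that of Ak1 at 444 ± 45.9. There the ranges of Ak1 and Adssl1, at 398 ± 26.5, overlapped, as did those of Adssl1 and Ampd1, at 364 ± 35.3. Ckmt2 was thus in place 5 of 9 in the knockouts and in place 2 in the controls. Slc6a8 averaged 26.3 per kilobase in the knockouts and 25.2 in the controls. Gamt, Ampd3 and Ckb were lowest, at 4.36, 3.13 and 1.47 in the knockouts and at 4.59, 5.10 and 2.28 in the controls.

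**Figure D4:**
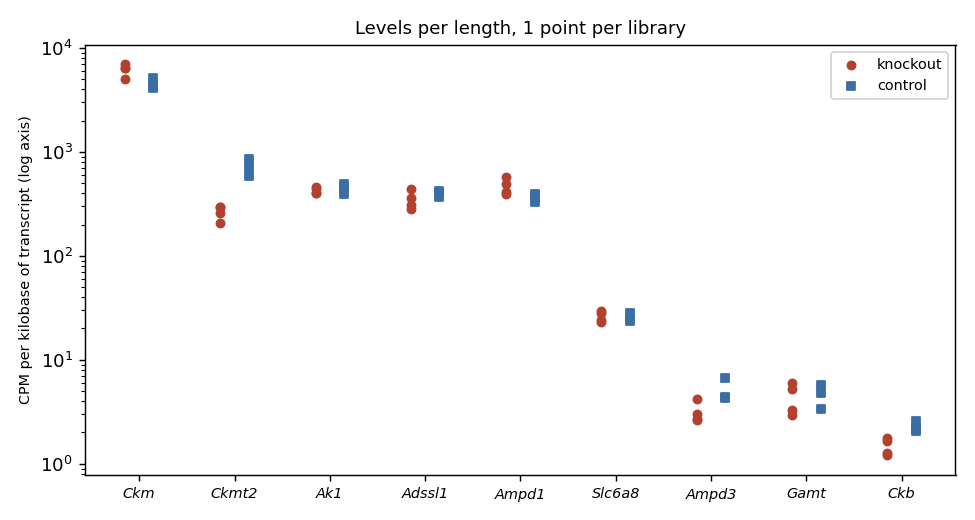
CPM per kilobase of transcript for each gene in every library (log axis, ordered by control level), knockout circles left and control squares right. Ckm lies above all other genes, and Ckmt2 averages 264 in the knockouts and 711 in the controls.

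Other genes of creatine and purine nucleotide metabolism, with related transporters, were read from 7 lists of 59 genes, of which 49 were tested. Of these, 1 rose and 6 fell, so 14.3% were called, near the 14.9% of all genes tested. The median log2 fold change was -0.12. Adk, adenosine kinase, which makes AMP from adenosine, fell most among the called. It read 34.3, 27.4, 28.9 and 37.9 CPM in the knockouts, against 64.8, 69.1 and 59.0 CPM in the controls, with no overlap. Its log2 fold change was -1.002 (SE 0.120, edgeR adjusted p = 0.00311), and it was called under every alternative tried. Of the 9 genes of purine salvage and guanine interconversion, the GMP reductase gene Gmpr also fell, with a log2 fold change of -0.30 (edgeR adjusted p = 0.0433), and 0 rose.

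Among 8 other nucleoside monophosphate kinases 1 fell, Ak3 of the mitochondrial matrix, to 56.5 ± 2.27 CPM in the knockouts against 70.5 ± 7.43 CPM in the controls (log2 fold change -0.32, edgeR adjusted p = 0.0391). Of 7 nucleoside diphosphate kinases, which pass phosphate from ATP to other nucleotides, Nme1 fell, with a log2 fold change of -0.71, and Nme6 rose, with 0.56 (edgeR adjusted p = 0.0101 for each). Both were called without each library in turn, and Nme1 was not called without knockouts 2 and 3 together (0.0587). Of 12 purine breakdown genes the nucleotidase Nt5c2 fell, with a log2 fold change of -0.62 (adjusted p = 0.0278). Of 7 genes that build purines from ribose phosphate Prps2 fell, with -0.83 (adjusted p = 0.0388), at 1.04 CPM in the knockouts and 1.85 CPM in the controls.

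None of the 3 tested genes of the creatine list passed, among them the taurine transporter gene Slc6a6. Gatm, the first step of creatine synthesis, had a log2 fold change of -0.61 (edgeR adjusted p = 0.199), and the value was -0.13 without control 1, where Gatm was highest at 6.91 CPM. Slc16a12, a creatine carrier of other tissues, had -0.91 (adjusted p = 0.0601). Of the other genes of the purine nucleotide cycle, Adsl, which follows adenylosuccinate synthetase, had -0.12 and Ampd2, the third AMP deaminase, 0.22 (adjusted p = 0.348 and 0.268). With 1 library left out, Ak3, Gmpr and Prps2 lost their calls in 6 of 7 fits each and Nt5c2 in 4 of 7.

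**Figure D5:**
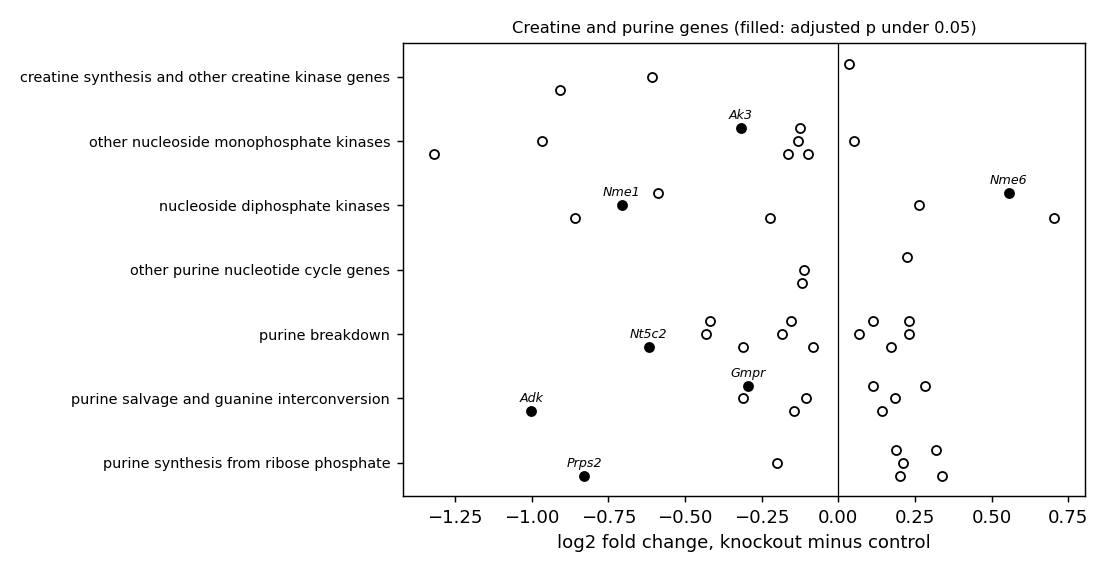
Log2 fold change, knockout minus control, of the 49 tested genes in 7 lists of creatine and purine metabolism, 1 point per gene. Filled points are the 7 called genes, named beside the point; 6 lie left of 0 and Nme6 lies right.

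The genes closest in pattern to 4 of the enzymes were found by the root mean square difference in log2 CPM over the 7 libraries, each gene centred on its own mean, among 7589 genes. Closest to Ckm were Cc2d1a (0.0383), the M-band gene Myom1 (0.0547) and the spectrin gene Sptb (0.0602). Closest to Ckmt2 were Acaa2 of mitochondrial fat oxidation (0.150), Plbd1 (0.165) and the calcineurin regulator Rcan2 (0.192). Closest to Ampd1 were the plakoglobin gene Jup (0.0736), Ranbp10 (0.0806) and Tcf20 (0.0873). Closest to Ampd3 were Mtx2 of the mitochondrial outer membrane (0.116), Tceal5 (0.150) and the fatty acid activating enzyme Acsl1 (0.155). Their direction of change follows from this choice and is no separate result.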

How the data were processed

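RNA of 7 gastrocnemius samples was sequenced as 150 bp paired reads, per the labels' protocols. The submitters' processing notes name STAR 2.7.10a, RSEM 1.2.28, DESeq2 1.3.40 and mm10. The authors' deposited table holds expected counts per gene, not all whole, which were rounded before testing. Its 7 columns were matched to the samples by name, and 0 other columns of samples were present. Annotation and strand setting are unknown here.

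Tests used edgeR 4.0.16 under R 4.3.3 (filterByExpr, TMM, quasi-likelihood F test of edgeR 4 with its newer dispersion fit, no replicate term), with p-values adjusted by Benjamini-Hochberg over all 13409 genes and a threshold of 0.05. Standard errors are |log2 fold change| divided by √F. CPM are on TMM library sizes. The edgeR test was also run on simulated counts. These had the trended spread of the data and no split among the knockouts, so they cannot vouch for single calls. Ratios within a library used unrounded counts and a 2-sided exact permutation test over 35 arrangements. Lengths and positions are from GENCODE M21 (GRCm38, the build mm10), matched by symbol for all 9 genes. Of these, 7 had RefSeq start windows.

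The genes, the lists and the tests were chosen with earlier results of these data known. Named beside the 9 genes were up to 5 called genes of each enzyme list, or the 2 with the smallest p where none was called, the 3 nearest patterns of 4 enzymes (average log2 CPM above 3, prior count 2) and the most abundant cell markers, of which 1 is not reported here by name. Alternatives were RLE or upper quartile scaling, scaling without mitochondrial mRNAs, a filter at a mean count of 10 or none at all, DESeq2 1.42.0, a robust prior, a replicate term, each library left out and, chosen after seeing the data, the older quasi-likelihood fit and leaving out knockouts 2 and 3.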

Additional observations from a re-analysis of the deposited data

How the results depend on the processing

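The fall of Ckmt2 kept its direction and its call under all 17 alternatives (log2 fold change -1.56 to -1.28). Of the 9 genes, 1 was called with no filter, a robust prior, the replicate block or without knockouts 2 and 3, and 4 with DESeq2. The log2 fold change of Ampd3 was then -0.70 with no filter (adjusted p = 0.0521), -0.70 with a robust prior (0.0519), -0.62 with the replicate block (0.134) and -0.58 without knockouts 2 and 3. That of Ckb was called at -0.68 with upper quartile scaling, -0.64 with scaling that left out the mitochondrial mRNAs (3 of the 9 genes called in each) and -0.63 with DESeq2, and Ckm at 0.44 with DESeq2. The cause was not tested. With 1 library left out, 1 to 2 of the 9 genes were called, each lower, and log2 fold changes lay between -0.88 and -0.47 for Ampd3, -0.0047 and 0.14 for Slc6a8 and -0.27 and 0.11 for Gamt. Without knockouts 2 and 3, Slc6a8 turned to -0.10 and Gamt to 0.29. Genes called numbered 1998 in all (895 higher, 1103 lower), 1273 (577 and 696) with the replicate block, 833 (373 and 460) without knockouts 2 and 3, and 793 to 2057 (258 to 966 and 528 to 1091) with 1 library left out. The libraries share only a replicate number: the deviations of knockout and control libraries with numbers 1, 2 and 3 correlated at 0.0945, 0.134 and 0.0854. Each of these 6 libraries correlated best with its own number, a weak hint from the data. Knockout 4, which has no control of its number, correlated at 0.0809 with control 3. Deviations were taken from the mean of each group, so these correlations depend on each other. With 1 library left out the exact test of a ratio cannot go below 0.0667 or 0.1, so those are values without a test: -2.10 to -1.67 for Ckmt2 over Ckm, -1.20 to -0.96 for Ckb over Ckm and -1.25 to -0.86 for Ampd3 over Ampd1. Among related enzymes, the calls of Ak3, Gmpr, Prps2 and Nt5c2 ended with the replicate block (adjusted p = 0.0626, 0.0661, 0.0844 and 0.0806). Of the 9 genes, Ckb rested on the fewest counts, 49 to 65 in the knockouts and 80 to 94 in the controls, and the part of depth in its error was not tested.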

Other observations

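Of the genes listed beside creatine synthesis, 2 did not pass the filter on low counts. Ckmt1, the mitochondrial creatine kinase of other tissues, had 1 count in knockout 1 and 0 in the other libraries. Slc6a7, a proline transporter related to the creatine transporter, had 3, 1, 1 and 7 counts in knockouts 1 to 4, against 19, 8 and 26 counts in controls 1 to 3, with no overlap. Neither was tested.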
